A study of Mus musculus with 12 samples.

Results

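The genes of Polycomb repressive complex 2 (PRC2), the enzyme complex that EZH2 inhibitors (EZH2i) are directed at, were followed through scRNA-Seq libraries of cells enriched for leukocytes from mouse tumors. The 10 genes, of 31053 in the matrix, were Ezh2, Ezh1, Eed, Suz12, Rbbp4, Rbbp7, Jarid2, Mtf2, Phf19 and Aebp2, taken by their symbols. MC38 colon carcinoma cells were implanted under the skin of C57BL/6 mice. Cells with CD45, a marker of leukocytes, were isolated from the tumors with beads on day 17. The sample labels list 4 groups of 3 mice, which received daily subcutaneous vehicle or the EZH2i PF-06821497 at 100 mg/kg for 7 days or 16 days before that. No transgene or gene deletion is named for any group, and all carry the same tumor line. The 12 libraries were deposited as 1 matrix whose barcodes carry a library number, and no label ties a number to a mouse or a group. Libraries were not assigned to groups by their order or their cell numbers. EZH2i was therefore not compared with vehicle, every value below is over treated and untreated mice together, and libraries are described one by one, with no p-value.

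PRC2 places methyl groups on lysine 27 of histone H3, a mark that keeps genes silent through cell division. EZH2 carries the catalytic SET domain, which is the part that EZH2i block, and EZH1 is its less active paralog. EED binds the methyl mark and stimulates the enzyme, SUZ12 is the scaffold, and RBBP4 and RBBP7 are histone chaperones that also serve in other chromatin complexes. Accessory subunits define alternative forms of the complex, MTF2 and PHF19 in one form and JARID2 and AEBP2 in the other. In lymphocytes, EZH2 is known to accompany activation and proliferation, whereas EZH1 is known from resting and differentiated cells.

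On GRCm38, in GENCODE M21, Ezh2 lies on chromosome 6 (47530139 to 47595341, minus strand) and Ezh1 on chromosome 11 (101191115 to 101226463, minus strand). Suz12 is also on chromosome 11 (79993106 to 80034123, plus strand), and Aebp2 is on chromosome 6 (140622663 to 140678472, plus strand). Eed is on chromosome 7 (89954654 to 89980983, minus strand), Rbbp4 on chromosome 4 (129307100 to 129335370, minus strand) and Rbbp7 on chromosome X (162760402 to 162779092, plus strand). Jarid2 is on chromosome 13 (44729474 to 44921643, plus strand), Mtf2 on chromosome 5 (108065674 to 108109004, plus strand) and Phf19 on chromosome 2 (34893757 to 34914026, minus strand). None of the 10 overlapped another gene of the matrix on its own strand.

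Because cycling cells turned out to be where several of these genes stood highest, their promoters were searched for the E2F motif, the site of the factors that drive S phase genes. RefSeq windows of 300 bases on GRCm38.p6, from 250 before to 50 after a start, were found for all 10 genes (14 windows). The strings TTTGGCGC, TTTGCCGC, TTTCGCGC and TTTCCCGC were read on both strands, and 2.26% of the 32851 windows, or 2.6% of the 27025 genes, held at least 1 of them. Among the 10 genes, 3 held one, Ezh2, Suz12 and Phf19, each with 1 match. These 3 windows are shown with the match in capitals, and that of Ezh1 is shown beside them as the paralog without a match, all 5′ to 3′ on the gene's strand.
Ezh2, chr6:47594981-47595280: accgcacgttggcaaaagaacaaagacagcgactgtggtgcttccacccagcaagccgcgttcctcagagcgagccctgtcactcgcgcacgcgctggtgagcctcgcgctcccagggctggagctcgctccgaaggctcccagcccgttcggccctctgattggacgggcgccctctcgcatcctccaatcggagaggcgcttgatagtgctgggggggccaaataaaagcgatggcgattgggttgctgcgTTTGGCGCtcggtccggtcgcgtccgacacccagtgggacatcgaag
Suz12, chr11:79992856-79993155: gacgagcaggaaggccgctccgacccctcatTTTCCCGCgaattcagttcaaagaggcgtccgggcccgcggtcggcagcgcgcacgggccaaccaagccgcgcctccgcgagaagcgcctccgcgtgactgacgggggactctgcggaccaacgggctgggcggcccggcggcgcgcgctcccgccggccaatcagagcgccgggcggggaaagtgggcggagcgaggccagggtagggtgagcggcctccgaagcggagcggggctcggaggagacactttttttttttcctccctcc
Phf19, chr2:34913927-34914226: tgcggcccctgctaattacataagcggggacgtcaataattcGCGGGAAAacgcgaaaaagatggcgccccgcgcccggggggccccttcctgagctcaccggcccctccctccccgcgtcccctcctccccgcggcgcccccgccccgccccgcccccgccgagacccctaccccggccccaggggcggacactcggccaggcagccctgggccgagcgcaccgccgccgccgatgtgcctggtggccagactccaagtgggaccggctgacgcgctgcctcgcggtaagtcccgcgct
Ezh1, chr11:101226414-101226713: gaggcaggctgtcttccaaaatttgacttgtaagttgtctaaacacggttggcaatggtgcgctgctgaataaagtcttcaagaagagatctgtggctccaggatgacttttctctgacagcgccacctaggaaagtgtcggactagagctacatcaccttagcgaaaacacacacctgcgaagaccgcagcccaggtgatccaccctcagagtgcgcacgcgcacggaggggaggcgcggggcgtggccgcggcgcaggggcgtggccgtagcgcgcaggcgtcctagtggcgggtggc
Counted from the start as position 0, the match began at 3 in Ezh2, at -219 in Suz12 and at -208 in Phf19, where it lay on the other strand. Rbbp7, Rbbp4, Mtf2 and Eed held no match either, although they too were higher in cycling cells in every usable library, as given below. The shorter string CCAAT, common in promoters, was in a window of 8 of the 10 genes on either strand, and 37.4% of all windows and 41.1% of genes held it. TTTGAA, the cell cycle homology region, was in a window of 4 of the 10 genes, beside 20.2% of genes, and the cAMP response element TGACGTCA in none, beside 2.03%, both read on either strand. A match is a description of these letters, and binding was not measured.

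After the limits on genes and mitochondrial UMIs, 128912 of 140639 barcodes were kept. A cell was put in a class if it held UMIs of at least 2 of the 6 markers of that class and of at least 2 more than of any other class. This gave 83554 macrophages, 6318 T cells, 4624 monocytes, 2994 neutrophils, 613 dendritic cells, 392 NK cells and 344 B cells, while 30073 cells stayed unassigned. All 6 markers were highest in their own class, except that Cd209a was lower in the dendritic class than in T cells. The other 5 dendritic markers, such as Xcr1 and Clec9a, were highest there. With Cd209a at 4.30 CPM in the class and 10.9 CPM in T cells, results on dendritic cells hardly cover dendritic cells that express Cd209a. Cells were assigned by these same markers, so this order follows largely from the assignment and is no independent check of the classes. Libraries held 4256 to 38110 barcodes and medians of 2291 to 15081 UMIs per cell kept. Library 4 stood apart with 29 T cells and 1146 of the 2994 neutrophils, and 6 libraries held Y-linked UMIs although the study describes female mice. A total of 2236 barcode sequences occurred in 2 libraries and 25 in 3. Ptprc, which encodes CD45, had a UMI in 61.7 to 92.1% of the cells kept in single libraries. No class was set up for tumor cells, so any tumor cells, or doublets with them, were not singled out. At least 2 markers of 2 classes were found in 42.0% of the cells kept, and no doublet caller was run. Of these 54139 cells, 35624 were still assigned to the class with the wider margin, and they made up 36% of cycling and 25.7% of other T cells, and 48.2% of cycling and 35.4% of other macrophages. The results on cycling against other cells, and on non-cycling T cells or monocytes against macrophages, are therefore also given without them. The remaining comparisons are given only with them. Cycling cells were those with at least 1 UMI of Mki67 and 1 of Top2a, both genes of dividing cells. They made up 11.3% of T cells (716 cells), 12.7% of macrophages (10636), 13.9% of dendritic cells (85), 5.36% of NK cells (21), 0.779% of monocytes (36), 0.581% of B cells (2) and 0.200% of neutrophils (6).

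Levels are UMIs of a gene per 1000000 UMIs of the same cells (CPM). The libraries count 3′ ends, so a level is compared between cells and never between genes. Within a library, cycling cells were set against the other cells of the class where both numbered at least 20, which left 9 libraries for T cells and all 12 for macrophages. A gene counted as higher only if it was higher in every one of these libraries, and genes at 5 CPM or more on either side were tested.

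Of the 10 genes, Ezh2 had the largest median ratio of cycling to other cells in both T cells and macrophages. Phf19 came close, with median ratios of 3.38-fold in T cells and 4.83-fold in macrophages. Over pooled T cells the ratio of Phf19 was the larger, 4.77-fold against 3.96-fold. Phf19 also stood above Ezh2 when the other cells were limited further, as given at the end. In T cells Ezh2 stood at 149 to 276 CPM in the cycling cells of the 9 libraries, with a median of 182.7. The other T cells had 33.9 to 71.6 CPM, with a median of 49.6. The lowest cycling value, 148.6 CPM in library 8, was above the highest other value, 71.6 CPM in library 7, so the groups did not overlap. Within libraries the median ratio was 3.70-fold (2.58 to 5.83-fold), larger than that of 97.3% of the 9437 genes tested. In macrophages, cycling cells had 55.6 to 160.6 CPM of Ezh2, with a median of 123.2, and the other macrophages 17.9 to 37.0 CPM, with a median of 24.6. The ratio was 4.85-fold (3.09 to 5.98-fold), higher in 12 of 12 libraries and again without overlap. Library 8 at 55.6 CPM and library 12 at 76.5 CPM lay below the other 10 libraries, which had 114.1 to 160.6 CPM in cycling macrophages. These were the libraries with the most UMIs per cell, with medians of 14555 and 15081. With at least 2 UMIs of both Mki67 and Top2a required, they stood at 90.9 and 106.0 CPM beside 121.3 to 166.8 CPM in the others. The part of depth in this was not tested, and it cannot be told apart from treatment, which is not known for any library.

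**Figure D1:**
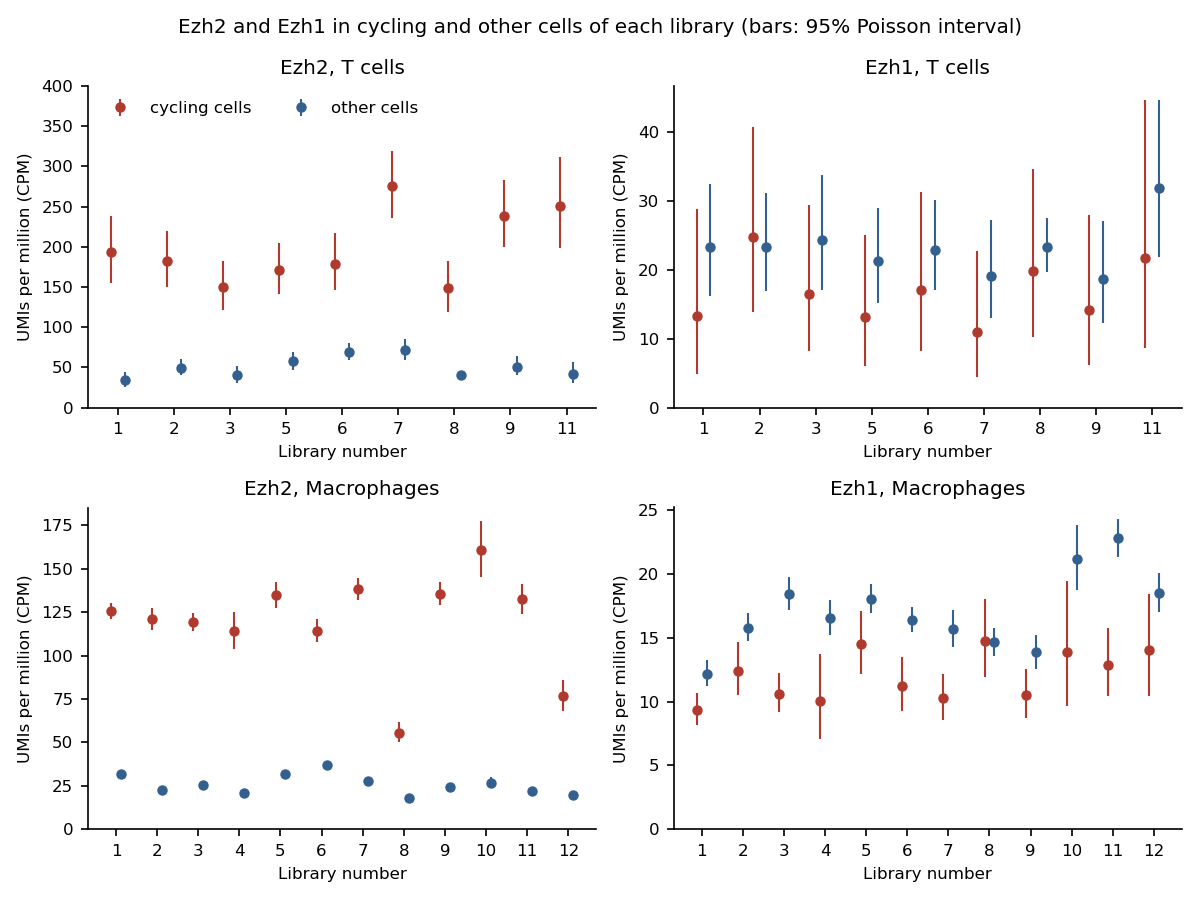
Ezh2 (left) and Ezh1 (right) in CPM for each library number, in T cells (top, 9 libraries) and macrophages (bottom, 12 libraries), red for cycling and blue for other cells, with exact 95% Poisson intervals that cover counting error only. For Ezh2 the red points lie above all blue points of the class, and for Ezh1 they lie below the blue point of the same library in 8 of 9 and 11 of 12 libraries.

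Cycling cells were the more deeply sampled ones, with a median of 5621.5 UMIs against 2607.5 in other T cells and 11070 against 4930 in macrophages. Among cells with 3000 to 10000 UMIs the log2 ratio of Ezh2 had a median of 2.08 in T cells (6 of 6 libraries) and 2.11 in macrophages (10 of 10), beside 1.89 and 2.28 without that limit. In terms of cells, 62.3% of cycling T cells had an Ezh2 UMI (exact 95% interval 58.6 to 65.9%) and 13.9% of the others. With every cell thinned to 1000 UMIs, which left 708 of the 716 cycling and 5010 of the 5602 other T cells, the shares were 18.9% (16.1 to 22.0%) and 4.53% (3.97 to 5.14%). Thinned neutrophils, the class with the lowest pooled level of Ezh2, had a share of 0.533%. Macrophages showed the same order with 63.4% and 13.9%, or 11.2% and 2.80% after thinning.

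Ezh1 went the other way as a share of UMIs. In T cells, the 9 cycling values were 11.0 to 24.7 CPM (median 16.4) and the others 18.6 to 31.8 CPM (median 23.2), with lower values in cycling cells in 8 of 9 libraries. The exception was library 2, with 24.7 CPM in cycling and 23.2 CPM in other cells, and the ranges overlapped. Cycling macrophages had 9.37 to 14.8 CPM and the others 12.2 to 22.8 CPM, lower in 11 of 12 libraries, with library 8 at 14.8 CPM against 14.7 CPM. The median ratio was 0.689-fold in T cells and 0.720-fold in macrophages. Counted per cell the order was not the same. Cycling cells were 11.3% of T cells with 15.9% of the Ezh1 UMIs, and 12.7% of macrophages with 14.4%. Ezh1 was thus lower as a share of UMIs and not in UMIs per cell. The counts were small, 6 to 15 UMIs per library in cycling T cells, and 4 of 6 libraries were lower within 3000 to 10000 UMIs. When the mean of log-normalized values per cell was used in place of summed UMIs, Ezh1 in T cells was lower in 4 of 9 libraries, with a median log2 ratio of 0.15 where that of all genes was 0.43.

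The balance of the paralogs therefore differed with the state of the cell. Other T cells held 2.14 Ezh2 UMIs for each Ezh1 UMI and cycling T cells 12, with library values of 1.33 to 4 and 7.4 to 25. Macrophages held 1.57 and 10.7, dendritic cells 2.63 and 24, NK cells 2.63 and 13, and monocytes 1.26 and 11.8. The values for cycling dendritic cells, NK cells and monocytes rest on 7, 3 and 4 Ezh1 UMIs. In neutrophils the ratio was 0.364, the one class with fewer Ezh2 than Ezh1 UMIs in pooled cells, with library values of 0 to 1.33. Among cells that were not cycling, single libraries of other classes also held fewer Ezh2 than Ezh1 UMIs. The lowest library values were 0.333 in monocytes, 0.969 in macrophages and 0 in both NK and B cells. As both genes are counted at their 3′ ends, only the difference between cells is read from this ratio, not which of the genes is the more abundant.

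The other core subunits were also higher in cycling cells, by smaller ratios. Rbbp7 stood at 170.2 to 209.5 CPM in cycling T cells (median 194.6) and at 74.1 to 118.8 CPM in the others (median 91.4), a 2.05-fold median ratio without overlap. Suz12 stood at 124.1 to 196.1 CPM against 57.8 to 105.8 CPM, 2.03-fold and also without overlap. Outside the 9 libraries, the 28 other T cells of library 4 had 190.6 CPM of Suz12, among the cycling values, and those of libraries 10 and 12 had 89.8 and 56.4 CPM. For Rbbp4 the values were 174.4 to 211.3 CPM against 79.0 to 133.6 CPM, 1.69-fold, and the groups stayed apart. Macrophages gave 2.42-fold for Rbbp7, 2.08-fold for Suz12 and 1.96-fold for Rbbp4, each higher in 12 of 12 libraries. The macrophage values of Rbbp7 and Rbbp4 did not overlap, while those of Suz12 did, at 49.6 to 109.5 CPM in cycling and 29.6 to 53.7 CPM in other cells. Eed showed the smallest difference of the core, 1.19-fold in T cells with 40.4 to 81.5 CPM against 36.5 to 52.3 CPM. In macrophages Eed was 1.45-fold higher, with 41.3 to 58.5 CPM against 27 to 38.3 CPM, and did not overlap. The Eed difference in T cells did not hold in cells with 3000 to 10000 UMIs, where 2 of 6 libraries were higher and the median log2 ratio was -0.09.

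Among the accessory subunits, Phf19 and Mtf2 were higher in cycling cells and Jarid2 was lower, all in CPM. Phf19 was a low gene, with 4.95 to 14.6 CPM in cycling T cells and 0 to 3.14 CPM in the others. It was higher in 9 of 9 libraries without overlap, on 3 to 10 UMIs per library in cycling cells, and library 7 had 0 UMIs in other T cells. In macrophages Phf19 stood at 3.26 to 10.7 CPM against 0.730 to 2.31 CPM, 4.83-fold as the median of 12 libraries. Mtf2 was 1.25-fold higher in cycling T cells (37.4 to 57.8 against 20.7 to 53.7 CPM, overlapping) and 1.54-fold higher in cycling macrophages (19.3 to 34.2 against 14.1 to 22.4 CPM, also overlapping). These calls did not hold throughout, since without the cells that held 2 markers of 2 classes Mtf2 was higher in 5 of 7 libraries of T cells and 10 of 12 of macrophages, and Phf19 in 5 of 7 and 12 of 12. With cycling cells taken by 3 S phase genes, Mtf2 was higher in 7 and Phf19 in 9 of 10 libraries of T cells. Jarid2 was at 20.9 to 49.4 CPM in cycling T cells (median 37.8) and at 50.01 to 84.7 CPM in the others (median 68.4). All 9 libraries were lower in cycling T cells, the groups did not overlap, and the median ratio was 0.568-fold. The gap was narrow, 49.4 against 50.01 CPM. Outside the 9, the other T cells of libraries 4 and 10 had 44.8 and 29.9 CPM, among the cycling values, and those of library 12 had 87.4 CPM. Within 3000 to 10000 UMIs 5 of 6 libraries were lower, with a median log2 ratio of -0.68 beside -0.81, and with a gate of Mki67 or Top2a 9 of 10 were. In macrophages the ratio of Jarid2 was 0.880-fold, lower in 12 of 12 libraries, with overlapping ranges of 23.5 to 50.8 and 28.9 to 54.8 CPM. On log-normalized values averaged per cell, 7 of 12 macrophage libraries and 8 of 9 T cell libraries were lower. Aebp2 differed in direction between the classes, with a median log2 ratio of -0.18 in T cells (lower in 9 of 9 libraries) and 0.16 in macrophages (higher in 12 of 12). The ranges overlapped in both, and in T cells with 3000 to 10000 UMIs 3 of 6 libraries were lower.

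**Figure D2:**
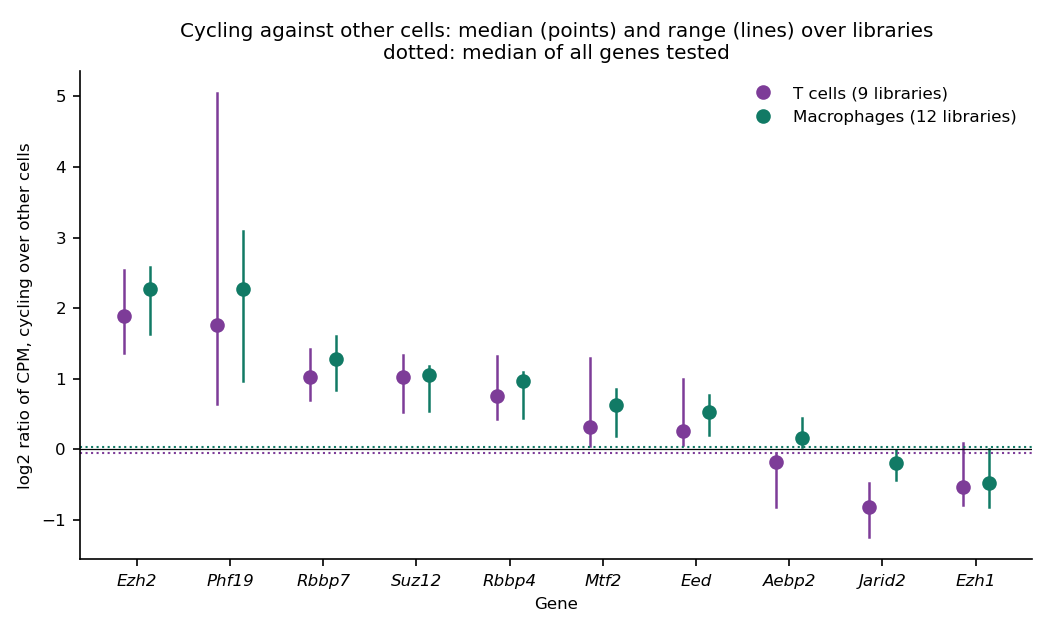
Log2 ratio of CPM in cycling over other cells for each PRC2 gene, as the median (points) and range (lines) over 9 libraries of T cells (purple) and 12 of macrophages (green), with dotted lines at the medians of all genes tested (-0.04 and 0.04). Ezh2 and Phf19 lie highest and Jarid2 and Ezh1 lowest in both classes, and the top of the line of Phf19 in T cells comes from a library with 0 UMIs on 1 side and depends on the added prior.

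In numbers, 7 of the 10 genes were higher in cycling T cells in every library, beside 11.8% of the 9437 genes tested, and 2 were lower in every library (Jarid2 and Aebp2), beside 8.39%. In macrophages 8 of 10 were higher, beside 25.7% of 9131 genes, and 1 was lower (Jarid2), beside 12.7%. Phf19 is in both counts and passed the limit of 5 CPM only through the cycling cells, so that without it they are 6 of 9 and 7 of 9. The libraries of both sides did not overlap for 5 higher genes in T cells (Ezh2, Phf19, Rbbp4, Rbbp7 and Suz12), beside 4.97% of genes, and for 1 lower gene (Jarid2), beside 0.254%. In macrophages they did not overlap for 5 higher genes, with Eed in place of Suz12, beside 6.06%, and for no lower gene, beside 0.142%. Phf19 is again among the 5 in both classes. Without it, Ezh2, Rbbp4 and Rbbp7 remain in both, with Suz12 in T cells and Eed in macrophages. The median log2 ratio of the 10 genes was 0.54 in T cells and 0.80 in macrophages, without Phf19 it was 0.32 and 0.62, and that of all genes tested -0.04 and 0.04. With T cells limited to 3000 to 10000 UMIs, 5 of 10 were higher in all of 6 libraries, beside 9.56% of 9466 genes, namely Ezh2, Suz12, Rbbp4, Rbbp7 and Mtf2, and none was lower in all, beside 7.7%. With macrophages limited in this way, 6 of 10 were higher in all of 10 libraries, beside 15.6%, Phf19 again among them, and 1 was lower (Jarid2), beside 5.98%. Without the cells that held 2 markers of 2 classes, 5 of 10 were higher in all of 7 libraries of T cells, beside 12% of genes, and 6 of 10 in all 12 of macrophages, Phf19 among them, beside 20.6%. Lower throughout were 1 of 10 in T cells (Jarid2), beside 10.5%, and 2 of 10 in macrophages (Jarid2 and Ezh1), beside 8.53%. Ezh2 then had median log2 ratios of 1.95 and 2.28, and Suz12, Rbbp4, Rbbp7 and Eed were higher throughout in both classes, while Ezh1 was lower in 4 of 7 libraries of T cells and in 12 of 12 of macrophages. For comparison, 8 of 10 S phase genes were higher in cycling T cells and 10 of 10 in cycling macrophages, with median ratios of 2.86-fold and 2.76-fold. The 10 genes of G2 and mitosis were higher throughout, by 18.2-fold and 11.6-fold, and share the basis of the gate. Of 6 other genes of H3K27 methylation, none was higher in every library of T cells. Phf1, a further accessory subunit, and Kdm6b, a demethylase, were lower in CPM in every library. Per 100 cells, however, Kdm6b had 101 UMIs in cycling and 62.9 in other T cells. Phf1 was at 7.80 against 24.5 CPM, lower in 9 of 9 libraries of T cells and in 12 of 12 of macrophages, where Lcorl was higher in 12 of 12.

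The gate of Mki67 and Top2a was then taken apart. Ezh2 was at 41.0 CPM in T cells with neither gene (95% interval 37.9 to 44.4), 72.7 CPM with 1 of them (65.4 to 80.6) and 195.8 CPM with both (184.1 to 208.0). Macrophages gave 21.4, 41.3 and 121.7 CPM, and dendritic cells 42.0, 71.7 and 174.8 CPM. NK cells had 38.0, 103.6 and 231.4 CPM and monocytes 12.5, 31.8 and 134.3 CPM, so the same order held in the pooled cells of all 5 classes. The step with 1 gene rests on 8 Ezh2 UMIs in NK cells and 47 in monocytes. Ezh1 had 22.5, 23.6 and 16.3 CPM in T cells and 17.2, 15.4 and 11.4 CPM in macrophages. Jarid2 had 66.8, 68.1 and 37.8 CPM in T cells, 163, 129 and 85.7 CPM in monocytes and 41.1, 35.1 and 33.2 CPM in macrophages. It was not lower with both genes in dendritic cells (91.1, 77.3 and 96.8 CPM) or NK cells (46.9, 64.7 and 77.1 CPM, on 42, 5 and 13 UMIs).

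**Figure D3:**
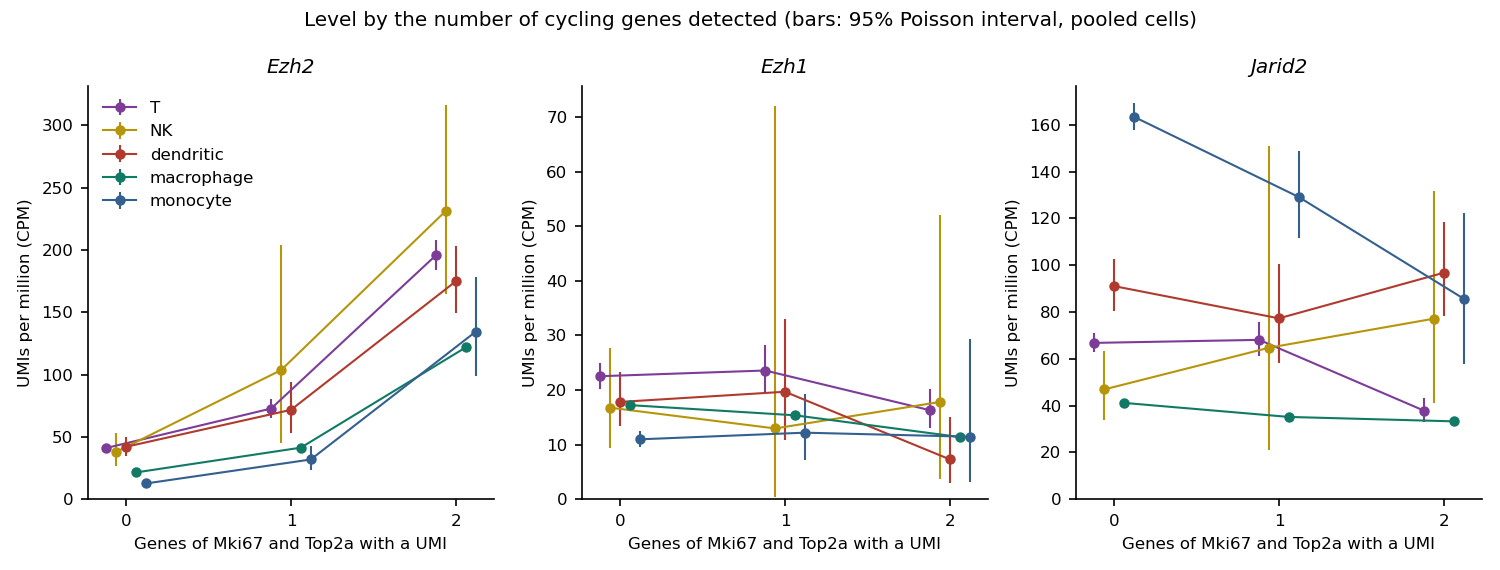
Ezh2, Ezh1 and Jarid2 in CPM by the number of genes among Mki67 and Top2a with a UMI, for the cells of 5 classes pooled over libraries, with exact 95% Poisson intervals. Ezh2 is higher at each step in all 5 classes (41.0, 72.7 and 195.8 CPM in T cells), while Ezh1 in macrophages is lower at each step (17.2, 15.4 and 11.4 CPM).

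A second list, of S phase genes, gave a similar picture for cells outside the gate. T cells with at least 3 of 10 S phase genes but without both gate genes had 74.0 CPM of Ezh2 (66.9 to 81.6). The T cells with neither sign were those with no UMI of Mki67 or Top2a and fewer than 3 S phase genes. They had 37.6 CPM (34.3 to 41.2). Cells with 1 gate gene and fewer than 3 S phase genes were in no group. The first group could hold cells with 1 gate gene, so it differs from those with neither sign by more than the S phase list. T cells with both signs had 211.0 CPM and those with the gate genes alone 103.3 CPM. In macrophages the 4 values were 43.9, 17.0, 130.5 and 70.3 CPM in the same order. Median UMIs were 5507.5, 2173, 6880 and 3600 in the T cell groups, so the groups also differ in depth. Ezh1 was highest in the cells with neither sign, with 24.4 CPM in T cells and 17.9 CPM in macrophages.

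The same contrast can be put as the share of a gene's UMIs that lies in cycling cells. Cycling cells were 11.3% of T cells and held 20.9% of all T cell UMIs, but 51.4% of the Ezh2 UMIs (49.2 to 53.6%) and 56.5% of those of Phf19 (45.3 to 67.2%). They held 35.9% of Rbbp7, 33.6% of Suz12 and 30.7% of Rbbp4, and 15.9% of Ezh1 and 12.9% of Jarid2. In macrophages, 12.7% of the cells held 19.9% of all UMIs and 53.3% of those of Ezh2, with 30.1 to 67.4% in single libraries. Ezh1 was at 14.4% and Jarid2 at 17.2% there. In both classes these 2 genes were below the share of all UMIs but not below the share of cells. Cycling cells thus did not hold fewer of their UMIs per cell.

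**Figure D4:**
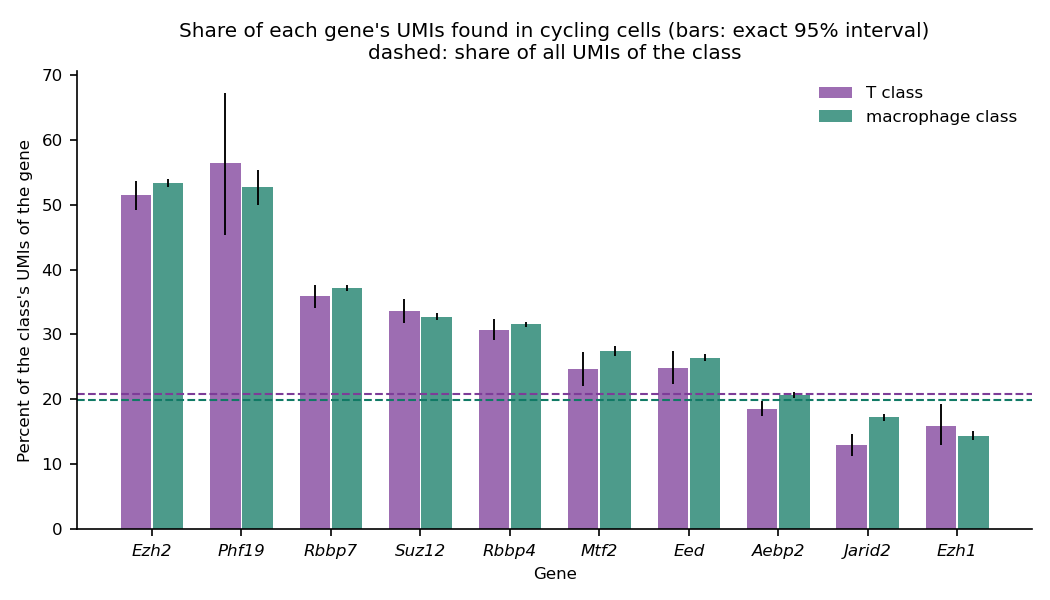
Percent of the UMIs of each PRC2 gene that lie in cycling cells, for T cells (purple) and macrophages (green), with exact 95% binomial intervals and dashed lines at the percent of all UMIs of the class (20.9% and 19.9%). Ezh2 and Phf19 stand above 50%, while Ezh1 and Jarid2 stand below the dashed lines.

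The cell classes were also compared in the cells outside the gate, called non-cycling here. This name covers 925 T cells and 13855 macrophages with 1 of the gate genes, and 836 and 14207 cells with at least 3 S phase genes, which had more Ezh2 than the rest. The 10 S phase genes were themselves 1.45-fold higher in these T cells than in macrophages as their median, 1 of them in all 12 libraries. Non-cycling T cells were higher than non-cycling macrophages in all 12 libraries for 7 of the 9 genes that passed the CPM filter, beside 20.9% of 9797 genes tested, and lower for none, beside 21.3%. Aebp2 differed most. It stood at 139.6 to 336.3 CPM in T cells and 28.7 to 69.9 CPM in macrophages, a 4.33-fold median ratio without overlap, and the highest T cell value came from the 28 non-cycling T cells of library 4. Suz12 was the other gene without overlap, so 2 of 9 were higher in this way, beside 11.4% of genes, and none lower, beside 13.1%. Suz12 was 2.22-fold, Mtf2 1.97-fold and Ezh2 1.89-fold higher in T cells. Rbbp7 (1.45-fold), Rbbp4 (1.42-fold) and Eed (1.22-fold) differed less. Ezh1 was higher in 11 and Jarid2 in 10 of 12 libraries, and Phf19 was below the filter. These counts differed on another scale. With log-normalized values averaged per cell, Suz12 and Aebp2 were still higher in 12 of 12 libraries, and Ezh2 in 11, Mtf2 in 10, Rbbp4 in 9, Rbbp7 in 7 and Eed in 5. On that scale the median log2 ratio of all genes was -0.35, in place of 0.08, and 10.6% of genes were higher and 36.2% lower in every library, against 2 and none of the 9 genes. Without the cells that held 2 markers of 2 classes, Eed was higher in 9 and Rbbp7 in 11 of 12 libraries, while Ezh1 and Jarid2 were higher in all. Thus 7 of 9 genes were higher throughout, beside 16.2% of genes, and none lower, beside 19.7%. In cells with no UMI of Mki67 or Top2a and fewer than 3 S phase genes, Ezh2 was at 37.6 CPM in T cells and 17.0 CPM in macrophages, higher in 12 of 12 libraries at a median of 2.41-fold. There 5 of 9 genes were higher throughout (Ezh2, Suz12, Rbbp4, Rbbp7 and Aebp2), beside 17.5% of genes, and none lower, beside 20%, and the S phase genes were at 1.82-fold. Non-cycling T cells had a median of 2607.5 UMIs and macrophages 4930, and among cells with 3000 to 10000 UMIs Ezh2 was higher in T cells in 10 of 11 libraries, with a median log2 ratio of 1.10 beside 0.92 without that limit.

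The order of the classes for Ezh2 in non-cycling cells was T cells (48.8 CPM), dendritic cells (47.7), NK cells (43.2), B cells (29.8), macrophages (26.4), monocytes (13.9) and neutrophils (7.22). T cells were above dendritic cells in 7 of 11 libraries, dendritic above NK cells in 4 of 6 and B cells above macrophages in 1 of 3, so these neighbours were not told apart. Macrophages were above monocytes in 12 of 12 libraries. Monocytes were above neutrophils in 9 of 12, so this pair was not told apart either. Rbbp7 had a similar pooled order. It ran from dendritic cells (99.5 CPM) and T cells (89.7) through NK cells (83.2), macrophages (60.9) and B cells (50.9) to monocytes (27) and neutrophils (12.9). Dendritic cells were above T cells in 6 of 11 libraries, T cells above NK cells in 5 of 6 and macrophages above B cells in 1 of 3. Monocytes were above neutrophils in 11 of 12, so all these neighbours changed order in some library. As Rbbp7 is X-linked, it was also read by the presence of Y-linked UMIs. Non-cycling macrophages had 45.1 to 77.1 CPM in the 6 libraries with such UMIs and 47.4 to 69.4 CPM in the 6 without, so the ranges overlapped.

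Among the genes above the CPM filter, monocytes differed most from macrophages in Jarid2, and several other differences were shared with another class. Against macrophages, neutrophils were lower in Rbbp7, Ezh2 and Rbbp4 in 11 of 12 libraries, and T cells higher in Eed in 12 of 12. Jarid2 was at 110.8 to 200.2 CPM in the monocytes of the 12 libraries and 28.9 to 54.8 CPM in the macrophages, which did not overlap. It was the 1 gene higher without overlap, beside 3.23% of genes, and none was lower in this way, beside 5.57%. The median ratio was 4.11-fold, larger than that of 98.4% of genes tested, and monocytes also exceeded dendritic cells (88.4 CPM) in 11 of 11 libraries. Eed was 1.42-fold higher in monocytes than in macrophages in 12 of 12 libraries, and in 10 of 12 on log-normalized values averaged per cell. In the other direction, Rbbp7 (0.468-fold), Ezh2 (0.619-fold), Ezh1 (0.687-fold) and Rbbp4 (0.792-fold) were lower in 12 of 12. Thus 2 of 9 genes were higher in every library, beside 12.6% of 9033 genes, and 4 were lower, beside 20.1%. With log-normalized values averaged per cell, 1 was higher (Jarid2), beside 5.63%, and 4 were lower, beside 39.5%, where the median log2 ratio of all genes was -0.40. Without the cells that held 2 markers of 2 classes, Jarid2 (higher) and Rbbp7 (lower) still differed in 12 of 12 libraries, Eed, Ezh1 and Rbbp4 in 11 and Ezh2 in 9. This left 1 gene on each side, beside 8.71% higher and 13.7% lower. All 10 S phase genes were lower in monocytes in every library too. In cells with neither gate gene and fewer than 3 S phase genes, Ezh2 was lower in 10 and Rbbp4 in 11 of 12 libraries. Jarid2 and Eed were still higher in all, 2 of 9 beside 12.3%, and Rbbp7 and Ezh1 lower in all, 2 of 9 beside 17.5%, while 2 of the 10 S phase genes were lower in all.

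Aebp2 stood at 202.0 CPM in dendritic cells, near the 185.0 CPM of T cells and 4.14-fold above macrophages in the median of 11 libraries, higher in all of them. Jarid2 (2.15-fold) and Rbbp7 (1.62-fold) were the other genes higher in all 11, so 3 of 9 were, beside 9.95% of 9401 genes, and none was lower, beside 19.7%. Mtf2 was at 16.0 CPM in dendritic cells and 40.3 CPM in T cells. NK cells were above macrophages in 6 of 6 libraries for Aebp2, Suz12, Rbbp4 and Rbbp7, 4 of 9 beside 11.3% of 9713 genes, and below for none, beside 19.7%. B cells reached 20 cells in 3 libraries only. There 1 of 9 genes was higher than in macrophages in all 3 (Jarid2), beside 14.3% of genes, and 1 lower (Aebp2), beside 31%. Jarid2 was 2.85-fold on 4, 5 and 19 UMIs. Aebp2 was 0.941-fold on 3, 2 and 4 UMIs, so no difference is read for it. Neutrophils, at a median of 1269 UMIs per non-cycling cell, had no gene on either side in every library, beside 7.03% higher and 23.1% lower. No Phf19 UMI was found in 2988 non-cycling neutrophils, which allows a level of up to 0.461 CPM.

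**Figure D5:**
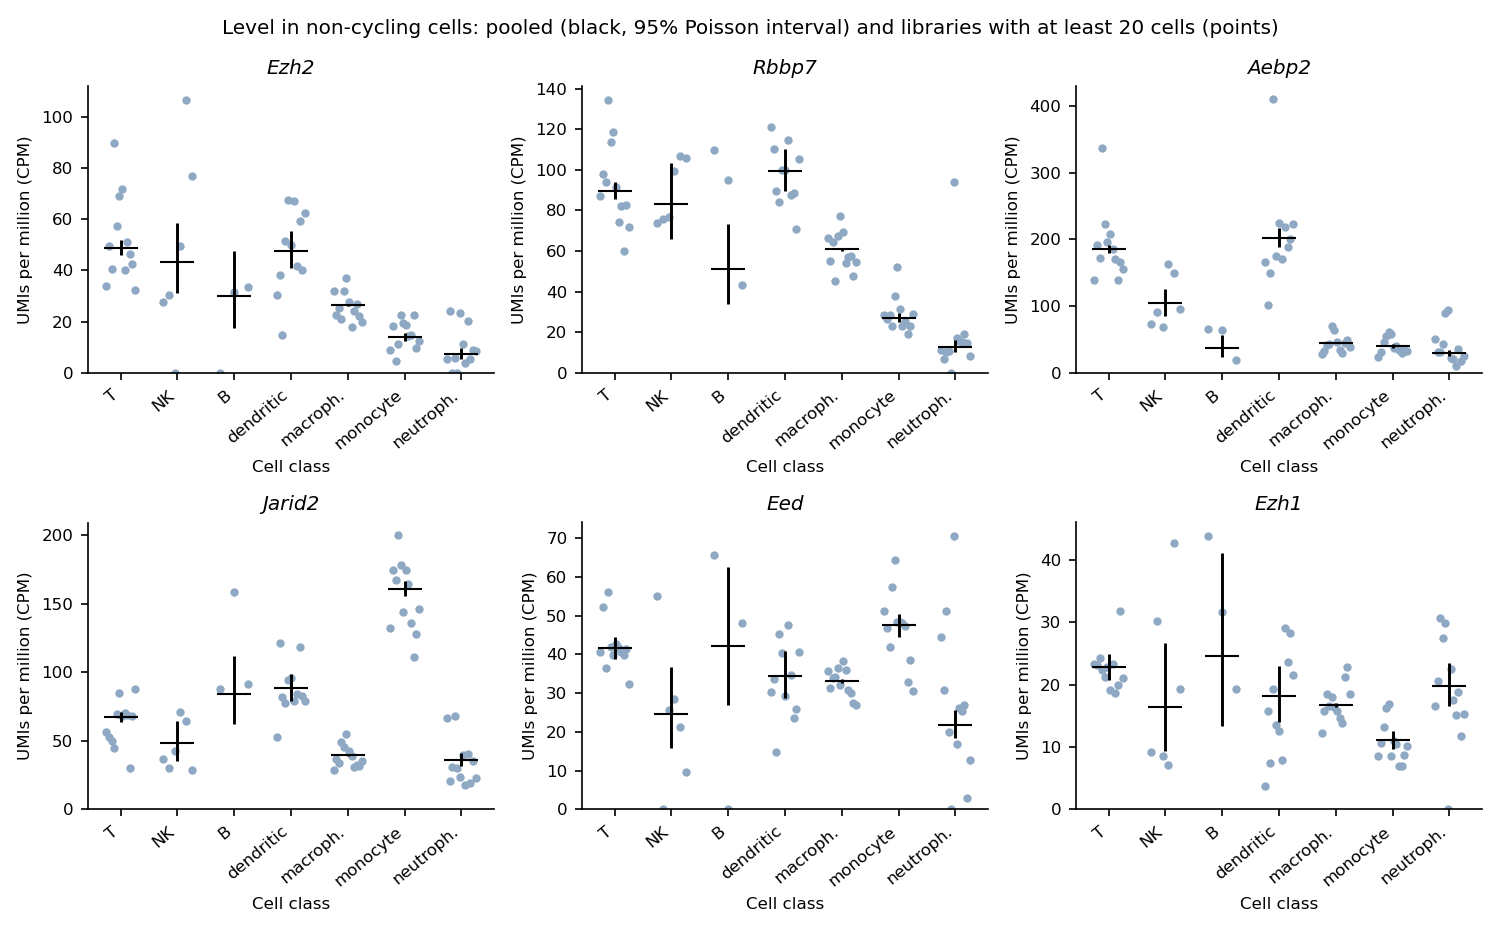
CPM of 6 PRC2 genes in non-cycling cells of 7 classes, pooled (black, with exact 95% Poisson intervals) and in each library with at least 20 cells of the class (points). By pooled level, Jarid2 is highest in monocytes (161.0 CPM) and Aebp2 in dendritic cells and T cells (202.0 and 185.0 CPM). Ezh2 and Rbbp7 have their lowest pooled levels in neutrophils (7.22 and 12.9 CPM).

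Cycling T cells and cycling macrophages were also compared directly. This comparison is given only for all cells, including those that held 2 markers of 2 classes, and without a limit on depth. Median UMIs were 5621.5 in the cycling T cells and 11070 in the cycling macrophages. Of the 10 genes, 7 were higher in cycling T cells in all 9 libraries, beside 20.7% of 9785 genes, and none was lower, beside 22.7%. Aebp2 was 3.28-fold, Suz12 1.96-fold, Mtf2 1.57-fold and Ezh2 1.56-fold higher. These 4 genes, Rbbp4 and Rbbp7 did not overlap between the classes, 6 of 10 beside 11% of genes, and no gene was lower without overlap, beside 14.6%. For Ezh2 the values were 148.6 to 275.7 CPM in cycling T cells and 55.6 to 138.3 CPM in cycling macrophages of the same libraries. Eed (1.03-fold, 6 of 9 libraries), Jarid2 (1.10-fold, 5 of 9) and Ezh1 (1.41-fold, 8 of 9) did not differ in every library.

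Within the T cell class, cells with Cd8a and no Cd4 had 201.3 CPM of Ezh2 when cycling (460 cells, 187.0 to 216.5) and 54.2 CPM otherwise (2287 cells, 49.7 to 59.1). Cells with Cd4 and neither Cd8a nor Foxp3 had 223.3 CPM (58 cells, 184.7 to 267.6) and 45.1 CPM (720 cells, 38.2 to 52.9). The Cd4 cells were higher in 4 of 9 libraries among non-cycling cells, so no order was read. The 34 non-cycling cells with Foxp3, the regulatory T cell factor, had 12 Ezh2 UMIs (54.9 CPM, 28.4 to 95.9). Of the 9 genes above the CPM filter, 1 was higher in Cd4 cells in all 9 libraries, beside 4.2% of 9357 genes, and none was higher in Cd8a cells in all 9, beside 2.85%. That gene was Aebp2, with 232.7 CPM in Cd4 and 160.6 CPM in Cd8a cells and higher values in Cd4 cells in 9 of 9 libraries. Jarid2 was at 84.5 and 62.9 CPM, higher in Cd4 cells in 7 of 9 libraries. In the other direction, Rbbp4 was at 99.2 CPM in Cd4 and 114.5 CPM in Cd8a cells, higher in Cd4 cells in 1 of 9 libraries. Suz12 and Rbbp7 were each higher in Cd4 cells in 2 of 9.

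Likeness was measured as Pearson's r of log2(CPM + 1) over 10 strata, the classes split by cycling with at least 50 cells, among 11224 genes. These strata share libraries and differ in depth, and r is given as a description. The genes most like Ezh2 were Cenpk (0.985), Dek (0.984), Lsm2 (0.983), Pkmyt1 (0.982) and Pola2 (0.979), of which Pola2 is a subunit of the DNA polymerase that begins replication and Cenpk a kinetochore protein. Those most like Ezh1 were Lrrc61 (0.928), Nrbf2 (0.924), Zrsr1 (0.924), Nxf1 (0.905) and Ubald1 (0.902). Within the complex, Ezh2 was nearest to Rbbp7 (0.975), Phf19 (0.953) and Rbbp4 (0.917), then Suz12 (0.825), Mtf2 (0.724), Eed (0.641) and Aebp2 (0.589). Its r was -0.15 with Jarid2 and -0.43 with Ezh1.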

How the data were processed

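The authors digested MC38 tumors, enriched CD45+ cells, prepared 10x Genomics 3′ v3 libraries and deposited raw UMI counts of all 12 libraries as 1 matrix without normalization. The submitters' processing notes name Cell Ranger 2.1.1, Seurat and mm10, whereas the matrix header names version 3.0.2. The annotation is not given in the sources used here. Of the gene identifiers, 31011 were found in GENCODE M21.

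A barcode was kept with over 200 but under 5000 genes detected and no more than 10% of UMIs from mitochondrial genes, the limits of the study's methods. UMIs were summed per class, cycling state and library and divided by the total (CPM, per 1000000). For log2 ratios within a library, 1 UMI was shared over both sides in proportion to their totals. Intervals are at 95%, exact Poisson for pooled levels and Clopper-Pearson for shares, and reflect counting error alone. A count of 0 is given the limit of 3 counts. Thinning drew 1000 UMIs per cell with a fixed seed. The ratios were tested on simulated data with known folds. The software was matplotlib 3.10.9, pandas 2.3.3 and scipy 1.17.1 with numpy 2.4.6, under Python 3.11.15.

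The text names the 10 genes, 3 lists for comparison (S phase, G2/M, other H3K27 methylation genes) and the 5 genes most like Ezh2 and Ezh1. Members, markers and lists were chosen with earlier results of these data known. Of the H3K27 list, Ezhip was not among the genes measured. The edgeR test of EZH2i against vehicle that was set out for the case that libraries could be tied to mice was not run.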

Additional observations from a re-analysis of the deposited data

Results flagged for a closer look

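Aebp2 was the 1 PRC2 gene that was lower in cycling than in other T cells in every usable library (9 of 9, median log2 ratio -0.18) and higher in cycling than in other macrophages in every library (12 of 12, 0.16). The 9 libraries with both ratios all had the lower ratio in T cells, and the difference was not tested, since a matrix whose libraries are not mapped to samples is treated as 1 sample here. Both ratios are small beside the 1.89 and 2.28 of Ezh2. In T cells with 3000 to 10000 UMIs the median was 0.0035, with 3 of 6 libraries lower, and in macrophages of that depth it was 0.12, with 8 of 10 higher. With log-normalized values averaged per cell the T cell median turned to 0.0858, with 7 of 9 libraries higher, so that the opposite direction was not seen on that scale. Without the cells that held 2 markers of 2 classes, 5 of 7 libraries of T cells were lower and 10 of 12 of macrophages higher.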

How the results depend on the processing

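Ezh2 was higher in cycling than in other cells in every usable library under all alternatives run, with medians of 1.65 to 2.47 (log2) in T cells and 1.97 to 2.99 in macrophages. Leaving out library 4, which has too few cycling T cells to be among the 9, could change the macrophage values only. The highest values, 2.47 against 1.89 in T cells and 2.99 against 2.28 in macrophages, came from limiting the other cells to those with neither Mki67 nor Top2a and fewer than 3 S phase genes, where Phf19 stood above Ezh2 at 3.32 and 3.37. With log-normalized values averaged per cell Ezh2 came to 2.30 in T cells. On that scale Ezh1 in T cells turned to 0.15 from -0.54, and with a gate of Mki67 or Top2a it came to -0.24. Eed in non-cycling T cells against macrophages turned to -0.13 from 0.29, and Aebp2 in cycling against other T cells to 0.0858 from -0.18. That scale also moved the median of all genes, to 0.43 from -0.04 in cycling T cells, to 0.21 from 0.04 in cycling macrophages and to -0.35 from 0.08 in T cells against macrophages, so that Ezh1 and Aebp2 stayed below, and Eed above, the median of all genes. Genes higher and lower in every library became 30.3% and 1.05% in cycling T cells, from 11.8% and 8.39%, and 45.4% and 2.5% in cycling macrophages, from 25.7% and 12.7%. In cells with 3000 to 10000 UMIs, Aebp2 came to 0.0035 and Eed to -0.0851 in cycling T cells. A gate of 3 S phase genes left 4 genes higher in every library of T cells (Ezh2, Suz12, Rbbp4 and Rbbp7) in place of 7, beside 10.9% of all genes. The other alternatives left 5 to 7, beside 6.6 to 14.7% of genes on summed UMIs and 30.3% on the log scale. The cause of these moves was not tested. Among the values under an alternative, 110 of the main results and 466 of other genes and shares stayed within the spread between libraries, the counting interval or 1.5 times a count, and 6 and 64 moved beyond it. Another 4 values, the 2 of Eed and 2 of Aebp2 given above, changed sign after being on one side in every library, while Ezh1 had not been. The alternatives for the 8 genes other than Ezh2 and Ezh1 in cycling cells and the ones without cells holding 2 markers of 2 classes and with the other cells limited were chosen after seeing the data. All ratios are formed within libraries. Cycling and other cells are thus paired by library, but no test was run on these pairs. The replicate numbers of the labels could not serve as a block, because the library numbers carry none of them. Depth limits Phf19 everywhere, Ezh1 in cycling T cells and all genes in B cells, NK cells and neutrophils.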
